A study of Mus musculus with 4 samples.

Results

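The clustered protocadherin genes were examined in ATAC-seq peak lists of mouse lung endothelial cells. ATAC-seq uses a transposase to insert sequencing adapters into accessible DNA, and a peak is a stretch where insertions gathered. The members were the 58 genes whose symbols start with Pcdha, Pcdhb or Pcdhg followed by a subtype. They comprised 14 alpha, 22 beta and 22 gamma genes, and all of them lay on mouse chromosome 18 between 36930285 and 37841873 (mm10). A peak was counted when it overlapped a member or the 5 kb on either side of it. Joining the peaks of all lists wherever they overlapped gave 44 merged regions at these genes, of 113056 in the genome.

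Endothelial cells had been sorted by flow cytometry from the lungs of Dnmt3a knockout (KO) and wild-type (WT) mice, with 2 libraries for each genotype. Dnmt3a encodes a DNA methyltransferase that adds methyl groups to unmethylated DNA. The labels do not say how the knockout was made, in which cells it acted, or the age and strain of the mice. They also leave unsaid whether a genotype's 2 libraries are from separate animals, so p-values measure only the spread between these libraries, which may be technical.

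Clustered protocadherins are cadherin-like adhesion proteins best known in neurons, where each cell displays its own combination of isoforms and identical combinations recognise each other. In the alpha and gamma sub-clusters each gene name stands for a variable first exon with its own promoter, spliced to constant exons that the sub-cluster shares, whereas each beta gene is a single large exon. Promoter choice is known to involve DNA methylation by Dnmt3 enzymes and DNA looping by CTCF and cohesin. The last exons of the alpha and gamma sub-clusters are called C-type and are used more uniformly between neurons than the alternate exons before them.

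The lists held 85091 and 100879 peaks in KO replicates 1 and 2 and 101442 and 97627 in WT replicates 1 and 2. They covered 46.6 and 47.8 Mb in KO and 51.1 and 50.5 Mb in WT. KO replicate 1 stood apart as the shortest list. By base pairs, the overlap of lists (shared over total, the Jaccard index) was 0.708 between the KO lists, 0.823 between the WT lists and 0.72 to 0.778 between genotypes, so the KO lists overlapped each other less than they overlapped either WT list. At the protocadherin genes the same index was 0.668 between the KO lists, 0.836 between the WT lists and 0.621 to 0.684 between genotypes. Only positions and widths were listed, so depth is unknown, and the absence of a peak did not show closed chromatin.

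The 3 sub-clusters differed in how many peaks they held. The gamma sub-cluster held 31 merged regions, or 16.3 per 100 kb searched, against 2.61 per 100 kb in alpha (7 regions), 2.96 in beta (6 regions) and 4.15 over the genome. Regions listed in all 4 libraries numbered 18 in gamma, 5 in alpha and 0 in beta, which was 52.3% of the 44 regions together, beside 66.7% of all merged regions. Only 13 of the 58 members (22.4%) had a peak within 1000 bp of their start in all 4 libraries. Among 17492 protein-coding genes with a start record, 62.4% did. Those genes were scored at any start recorded with a strand, and members at the gene end taken as the start, so the rules differ. A start peak was listed in at least 1 library for 26 members and in no library for 32.

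**Figure D1:**
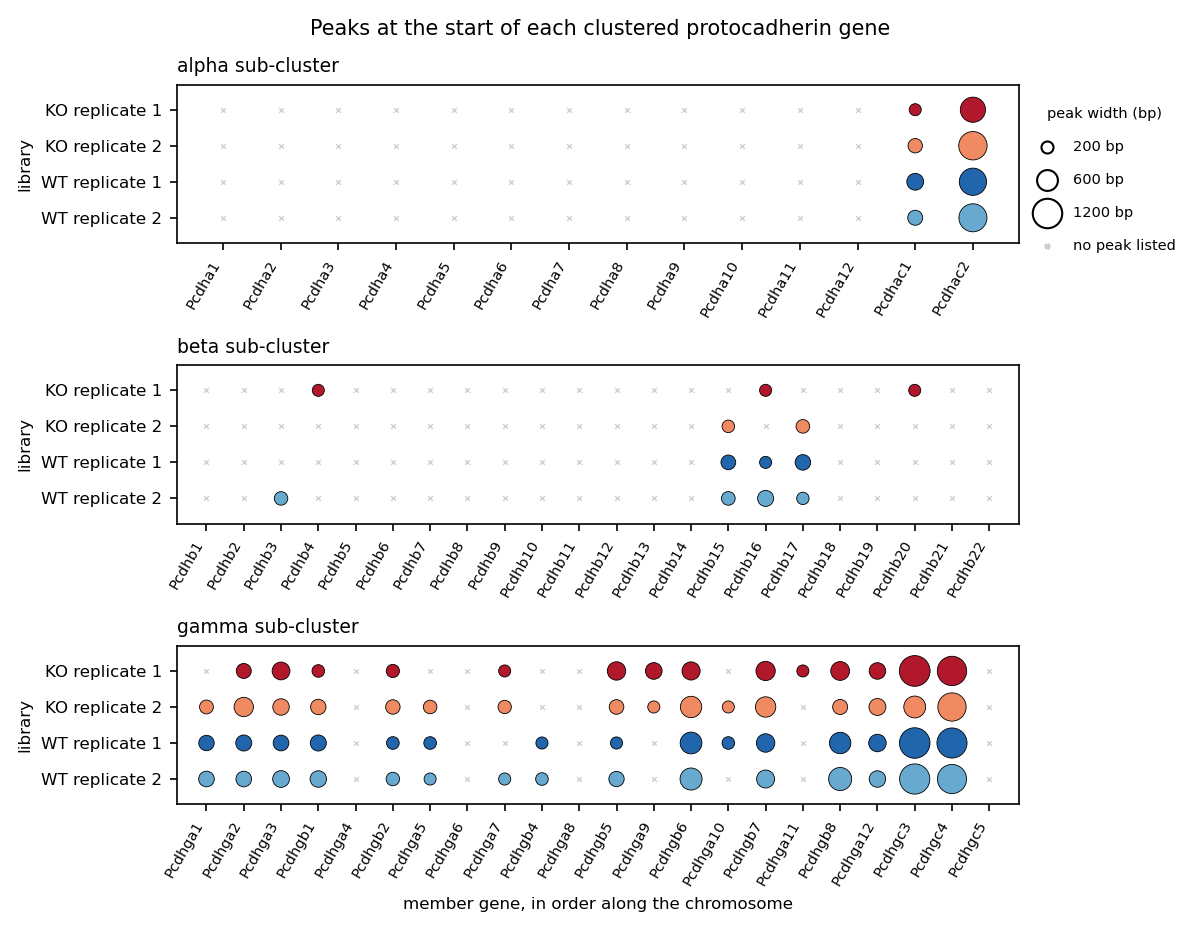
Width of the peak at the start of each of the 58 members (circle area, in base pairs) in each of the 4 libraries (rows), with the genes in chromosome order (columns); a cross marks a gene with no peak listed within 1000 bp. The 12 alternate alpha genes have no circle in any library, the beta panel has a few small circles, and most gamma genes have circles in all or most libraries.

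In the alpha sub-cluster (36930285 to 37188897) the alternate and the C-type genes were separate. None of the 12 alternate genes, Pcdha1 to Pcdha12, had a start peak in any library. No region of any kind was listed over the first 164.5 kb searched. How reads mapping to several similar exons were treated is not given, and its part in these and the other absences was not tested. Both C-type genes had a start peak in all 4 libraries. The peak at Pcdhac1 (gene identifier 353236, start 37090136) was 201 and 286 bp wide in KO replicates 1 and 2 and 392 and 311 bp in WT replicates 1 and 2, so both KO widths lay below both WT widths. The peak at Pcdhac2 (353237, start 37143678) was far wider in every library, at 877 and 1115 bp in KO and 1025 and 1086 bp in WT, and its genotypes overlapped.

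Past the Pcdhac2 start, toward and beyond the constant exons, lay another 5 alpha regions. The region at 37178211 to 37178825 was the widest of those inside the gene span, starts aside, that all libraries listed, with 583 and 531 bp in KO and 578 and 585 bp in WT. The region at 37165362 to 37165820 was listed at 428 and 345 bp in KO and 376 and 443 bp in WT. Both genotypes overlapped at each of these. A region in the 5 kb past the sub-cluster, at 37191029 to 37191677, was listed at 649 and 236 bp in KO and 410 and 449 bp in WT, so the KO libraries lay on either side of the WT ones. The other 2 regions were narrower and were missing from 1 or both KO lists.

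The beta sub-cluster (37264998 to 37521419) held a few narrow peaks and no region shared by all 4 lists. Of 22 beta genes, 6 had a start peak in at least 1 library and 0 had one in all 4. Pcdhb15, Pcdhb16 and Pcdhb17, which are neighbours, had one in 3 libraries each. Pcdhb3, Pcdhb4 and Pcdhb20 had one in 1 library each. The widths at Pcdhb15 were 218 bp in KO replicate 2 and 300 and 259 bp in WT, with no peak in KO replicate 1. The widths at Pcdhb16 were 202 bp in KO replicate 1 and 201 and 356 bp in WT, with no peak in KO replicate 2. At Pcdhb17 they were 256 bp in KO replicate 2 and 334 and 212 bp in WT. The 12 beta start peaks had a median width of 235.5 bp, and the narrowest peak in any whole list was 201 bp, so several stood close to the smallest width listed. All 12 lay at the low-coordinate end of their gene and 0 at the high-coordinate end. The longest stretch between neighbouring beta regions, from Pcdhb4 to Pcdhb15, was 165.7 kb.

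In the gamma sub-cluster (37661775 to 37841873) the peaks followed the variable exons one after another. A start peak was present in at least 1 library for 18 of 22 genes and in all 4 for 11. The alternate gamma exons fall into A and B types by sequence, and the types are interspersed. All 7 B-type genes had a start peak in both WT libraries, and 6 of them had one in both KO libraries, giving 26 of 28 gene and library combinations. The 12 A-type genes gave 26 of 48, with 6 and 8 genes in KO against 6 and 6 in WT. Pcdhga4, Pcdhga6 and Pcdhga8 had none in any library.

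Among the B-type genes, Pcdhgb6 (93703) had peaks of 455 and 628 bp in KO and 655 and 671 bp in WT. Pcdhgb7 (93704) had 516 and 573 bp in KO and 470 and 447 bp in WT. Pcdhgb8 (93705), annotated as a transcribed pseudogene, had 489 and 311 bp in KO and 633 and 736 bp in WT. The genotypes did not overlap at these genes, with KO below WT at Pcdhgb6 and Pcdhgb8 and above it at Pcdhgb7. Among all regions in 4 lists, both KO widths lay below both WT widths at 27.1% and above them at 7.37%. Pcdhgb2 (93700) had narrow peaks throughout, at 242 and 289 bp in KO and 223 and 251 bp in WT. Pcdhgb5 (93702) was uneven within both genotypes, at 469 and 295 bp in KO and 204 and 325 bp in WT.

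Among the A-type genes, Pcdhga2, Pcdhga3 and Pcdhga12 had a start peak in all 4 libraries. Pcdhga3 (93711) had peaks of 438 and 375 bp in KO and 342 and 387 bp in WT. Pcdhga2 (93710) had 310 and 518 bp in KO and 355 and 338 bp in WT. Pcdhga1 and Pcdhga5 were listed in every library other than KO replicate 1, and Pcdhga7 in every library other than WT replicate 1. Pcdhga10 was listed in KO replicate 2 and WT replicate 1, and Pcdhga11 in KO replicate 1 alone. The A-type start peaks had a median width of 333.5 bp and the B-type ones of 366 bp.

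The C-type starts carried the widest peaks. Over both sub-clusters, 4 of the 5 C-type genes had a start peak in all libraries, with a median width of 1097 bp and a median width percentile within the list of 95.7, against 28.6 for gamma A, 34.9 for gamma B and 9.14 for beta. At Pcdhgc3 (93706, start 37806410) the peak was 1306 bp wide in KO replicate 1 and 1287 and 1261 bp in WT. KO replicate 2 listed 3 separate peaks there that together covered 1106 bp. At Pcdhgc4 (93707, start 37815079) the widths were 1191 and 1108 bp in KO and 1252 and 1170 bp in WT. A further region followed each of these peaks. After Pcdhgc4 it covered 549 and 666 bp in KO and 561 and 615 bp in WT, and after Pcdhgc3 it covered 645 bp in KO replicate 1 and 365 and 390 bp in WT, with none in KO replicate 2. Pcdhgc5 (93708, start 37819546), the last variable exon, had no start peak in any library. Pcdhac1, the other C-type gene, had narrow peaks. These contrasts between gene types are descriptions with no test, since genes of a sub-cluster are neighbours that share libraries.

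Most start peaks covered the start itself. Of the 80 start peaks, 69 covered the start base itself, and the largest distance was 249 bp. Peak centres lay from -193.5 to 378.5 bp from the start, with a median of 61.75 bp. Some genes had a like position in every library: at Pcdhga12 (93724) the centre lay 358 bp past the start in both KO libraries and 366 and 378.5 bp past it in WT. At Pcdhgb8 it lay before the start in all 4 libraries, with offsets of -153 and -141 bp in KO and -151 and -193.5 bp in WT. Others did not. The 2 peaks at Pcdhga10 did not touch, running from -94 to 106 bp around the start in KO replicate 2 and from 249 to 468 bp past it in WT replicate 1.

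**Figure D2:**
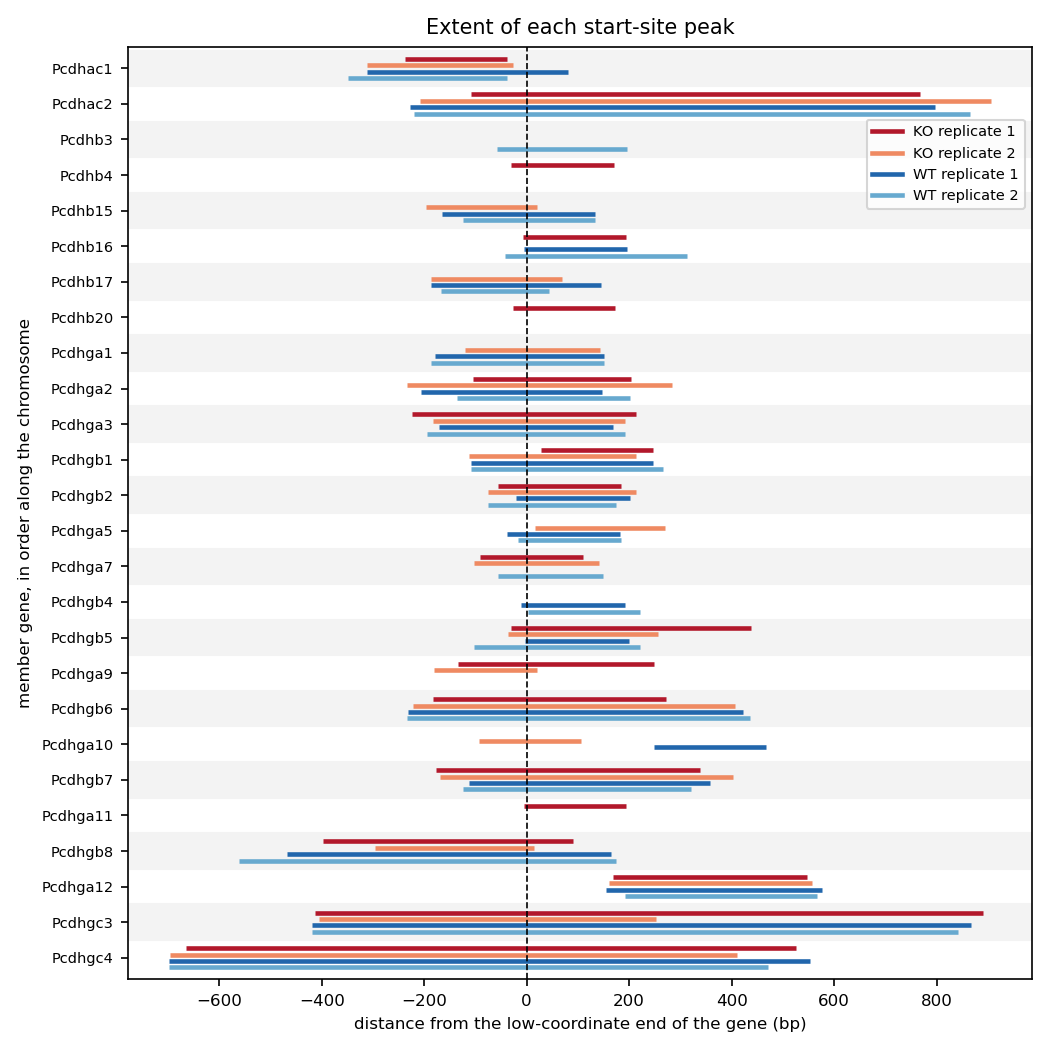
Extent of every start peak (coloured bars, 1 per library) relative to the low-coordinate end of its gene (dashed line at 0; x axis in base pairs), for the 26 members with a start peak in at least 1 library. Most bars cross the line, the bars of a gene overlap other than at Pcdhga10, and those of Pcdhac2, Pcdhgc3 and Pcdhgc4 are the longest.

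The gamma sub-cluster also held shared regions away from any start. Past Pcdhgc5, toward the end of the constant exons, 3 wide regions were listed in all libraries. The region at 37835368 to 37836675 covered 1241 and 1292 bp in KO and 1200 and 1272 bp in WT. The region at 37824819 to 37826150 covered 1172 and 1100 bp in KO and 1239 and 1202 bp in WT. The region at 37841297 to 37842466, over the shared high-coordinate end of the gamma genes, covered 1056 and 1141 bp in KO and 1002 and 1101 bp in WT. These were about as wide as the peaks at Pcdhgc3 and Pcdhgc4, and KO lay below WT without overlap at the region starting at 37824819 alone. Another 3 shared regions lay between Pcdhga12 and Pcdhgc3, the nearest of them 5231 bp before the Pcdhgc3 start, at 360 to 499 bp in every library.

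Between the sub-clusters, outside the stretches searched, 4 regions were listed, all of them in all 4 libraries. A pair lay 28274 and 29172 bp past the alpha genes, at 37217171 to 37217614 and 37218069 to 37218583. The alpha genes are known to be served by an enhancer downstream of their constant exons, and whether this pair is that enhancer was not tested. Of the pair before the gamma genes, the region at 37643806 to 37644583 lay over an end of Taf7, which encodes a subunit of the general transcription factor TFIID, and the other lay 5672 bp before the gamma start.

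KO and WT libraries were then compared per sub-cluster. There were 5 and 6 alpha peaks in KO against 7 and 7 in WT, which covered 2738 and 2758 bp in KO against 3452 and 3375 bp in WT. There were 3 and 2 beta peaks in KO against 3 and 4 in WT, covering 604 and 474 bp against 835 and 1080 bp. There were 26 and 30 gamma peaks in KO against 26 and 24 in WT, covering 14187 and 14506 bp against 13121 and 13143 bp. The KO libraries thus lay below both WT libraries in covered base pairs at alpha and beta and above them at gamma. With lists of equal length, made by keeping the widest peaks, beta peaks covered 604 and 0 bp in KO and 634 and 356 bp in WT: the difference shrank to -193 bp (exact permutation p = 0.667) and the genotypes overlapped. KO replicate 1, the shortest list, set that length and was not cut, so it kept beta peaks of 201 to 202 bp. KO replicate 2 lost beta peaks of 218 and 256 bp. The width limit thus differed between lists, and this overlap does not show that list length made the beta difference.

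The difference in means was -665.5 bp at alpha, -418.5 bp at beta and 1214.5 bp at gamma (2748 ± 14.1 against 3413.5 ± 54.4 bp, 539 ± 91.9 against 957.5 ± 173 bp, and 14346.5 ± 226 against 13132 ± 15.6 bp, SD, n = 2 each). The two-sided exact permutation p was 0.333 for each, the smallest that 2 against 2 libraries allow. For peak number the exact permutation p was 0.333 at alpha and 0.667 at beta and gamma. The whole KO lists also covered fewer base pairs than the WT lists, and the part of this in the alpha and beta values was not tested. Of the gamma difference, 948.5 bp lay in a region past the Pcdhga12 start: without it, an alternative added after the data were seen, the difference was 266 bp, with 13275 and 13521 bp in KO and 13121 and 13143 bp in WT. These values still held a region in the flank past the gamma genes, at 320 and 341 bp in KO and none in WT. With no flank, which drops that region but keeps the one past Pcdhga12, the difference was 884 bp. The difference without both regions was not computed, so it is not known whether KO stayed above WT over the rest of gamma.

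**Figure D3:**
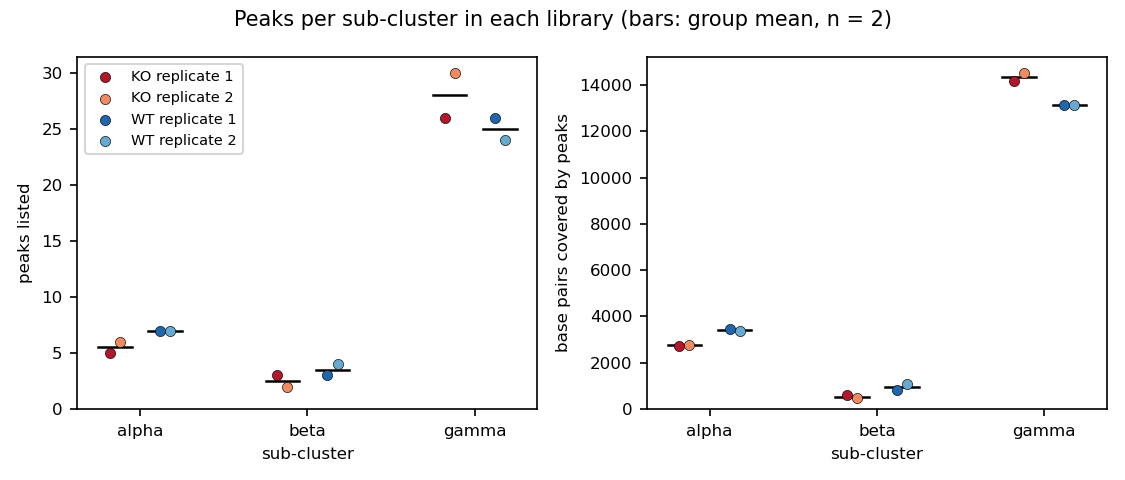
Number of peaks (left) and base pairs covered by peaks (right) in each sub-cluster, with 1 point per library and a bar at the mean of 2 libraries. At gamma the KO points for covered base pairs, 14187 and 14506, lie above the WT points, 13121 and 13143, while at alpha and beta they lie below.

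Regions that followed genotype were few in number. The KO pattern made up a larger share of the 44 than of all merged regions, while the WT pattern was near its share of all regions. Neither was tested. Those listed in both KO libraries and neither WT library (KO pattern) numbered 4 of the 44, where 1.12% of all merged regions had that pattern, and all 4 lay in the gamma sub-cluster. Those listed in both WT libraries and neither KO library (WT pattern) numbered 2, where 3.04% of all merged regions did, with 1 in alpha and 1 in gamma. Leaving out a library asks for 1 list fewer: without KO replicate 2 the counts were 8 and 7, beside 3.21% and 11.1% of all regions by the same rule, and without KO replicate 1 they were 5 and 4, beside 5.83% and 4.99%.

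The widest KO-pattern region lay 1830 bp past the start of Pcdhga12, at 37767410 to 37768442, inside the spans that all gamma genes up to Pcdhga12 share. KO replicate 1 listed 2 peaks there that together covered 912 bp, and KO replicate 2 listed a single peak of 985 bp. Neither WT library listed a peak within 1253 bp. By the narrower of its 2 width percentiles, 55.7, it ranked 36 among the 1267 KO-pattern regions of the genome, and it was the only KO-pattern region here that remained when each list was limited to peaks at or over its median width. At the Pcdhga12 start itself, the widths were 379 and 397 bp in KO and 423 and 376 bp in WT, so the genotypes overlapped there.

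The other KO-pattern regions were narrower. The start of Pcdhga9 (93717), at 37736755 to 37737185, had peaks of 384 and 202 bp in KO, and the nearest WT peak was 4675 bp away. A region 2964 bp past the Pcdhgc5 start, at 37822510 to 37822877, had 215 and 368 bp in KO, with a WT peak 950 bp away. A region at 37842674 to 37843017, which lay 801 bp past the end of the gamma genes and 584 bp before Diaph1, an actin regulator gene, had 320 and 341 bp in KO. A WT peak lay 273 bp from it.

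Both WT-pattern regions were narrow as well. The start of Pcdhgb4 (93701), at 37720365 to 37720598, had peaks of 203 and 221 bp in WT, with the nearest KO peak 5389 bp away. The alpha region 25878 bp past the Pcdhac2 start, at 37169556 to 37169865, had 310 and 211 bp in WT, with the nearest KO peak 2429 bp away. The next alpha region, at 37172294 to 37172660, was listed in WT at 361 and 290 bp and in KO replicate 2 at 245 bp, and was missing from KO replicate 1.

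**Figure D4:**
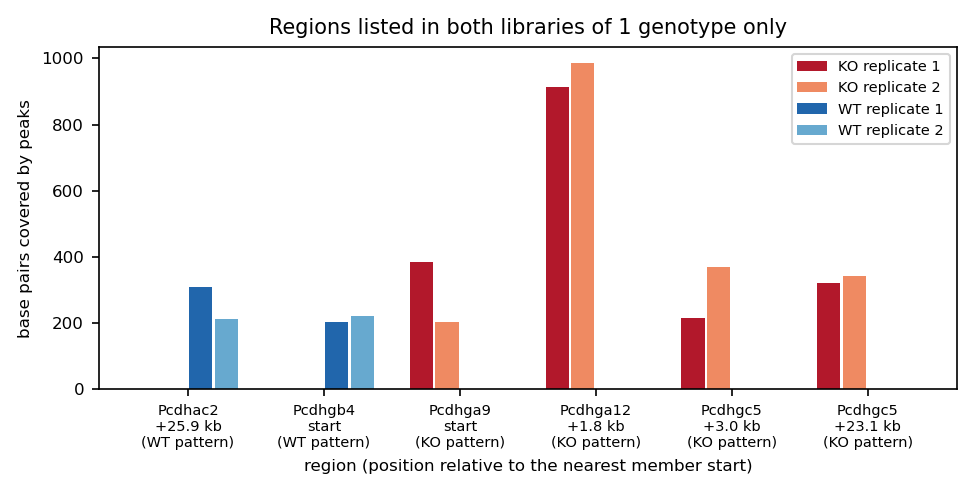
Base pairs covered by peaks in each library (bars) at the 6 regions listed in both libraries of 1 genotype and neither of the other, named by the nearest member start and the distance from it. The region past Pcdhga12 reaches 912 and 985 bp in KO, and the other 5 have no bar over 384 bp.

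At gene starts, a peak was listed for 19 and 20 members in KO against 20 and 21 in WT, a difference in means of -1 (exact permutation p = 0.667). Pcdhga9 was the only member with the KO pattern at its start and Pcdhgb4 the only one with the WT pattern, beside 0.0915% and 0.412% of protein-coding genes with a start record. Of the 13 members with a start peak in some libraries, 7 differed in KO replicate 1 alone. Pcdhb15, Pcdhb17, Pcdhga1 and Pcdhga5 were missing from KO replicate 1 alone, and Pcdhb4, Pcdhb20 and Pcdhga11 were listed there alone. When all lists were cut to an equal number of peaks by keeping the widest, these numbers were 19 and 13 in KO and 14 and 14 in WT, and the difference turned to 2 more in KO (exact permutation p = 1).

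Peak width was compared at the 23 cluster regions listed in all 4 libraries, in 1 fit of limma on quantile-normalised log2 width over all 75395 such regions. After Benjamini-Hochberg adjustment 0 of the 23 and 0 of the 75395 regions (0%) passed 0.05, with 2 and 4546 (6.03%) at an unadjusted p under 0.05. With 2 libraries a genotype the fit had little power: in 2 of 3 simulations it called 0 of 100 planted log2 changes of 1 and 0 of 100 of 2, and in the other it called 3 and 68, so the absence of calls says little about whether widths differed. The median log2 difference, KO minus WT, was 0.002 for the 23 regions and 0.009 for all. Quantile normalisation gives the libraries the same spread of widths, so a median near 0 over all regions was largely set in advance. Without normalisation the median of the 23 regions was -0.064. In the normalised fit, Pcdhgb8 had the lowest value, -0.80 (SE 0.25, limma adjusted p = 0.774), and Pcdhgb5 the highest, 0.56 (SE 0.33, limma adjusted p = 0.922). Pcdhgb2 was the other region with an unadjusted p under 0.05, at 0.33 (SE 0.10, limma adjusted p = 0.76).

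As listed, both KO widths lay below both WT widths at 6 of the 23 regions (26.1%), beside 27.1% of all regions in 4 lists, and above them at 1 region, the Pcdhgb7 start (4.35%), beside 7.37%. The 6 were the starts of Pcdhac1, Pcdhgb1, Pcdhgb6 and Pcdhgb8, the region 5231 bp before Pcdhgc3 and that 5273 bp past Pcdhgc5. Pcdhgb1 had 220 and 328 bp in KO and 356 and 376 bp in WT. The region before Pcdhgc3 was barely apart, at 385 and 435 bp in KO and 438 and 436 bp in WT. Its normalised log2 difference was -0.001 (SE 0.107). Pcdhac1 differed by -0.45 (SE 0.21, limma adjusted p = 0.884). At the wide C-type starts the differences were smaller than their standard errors: -0.08 (SE 0.19) at Pcdhac2, -0.06 (SE 0.09) at Pcdhgc3 and -0.05 (SE 0.09) at Pcdhgc4.

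**Figure D5:**
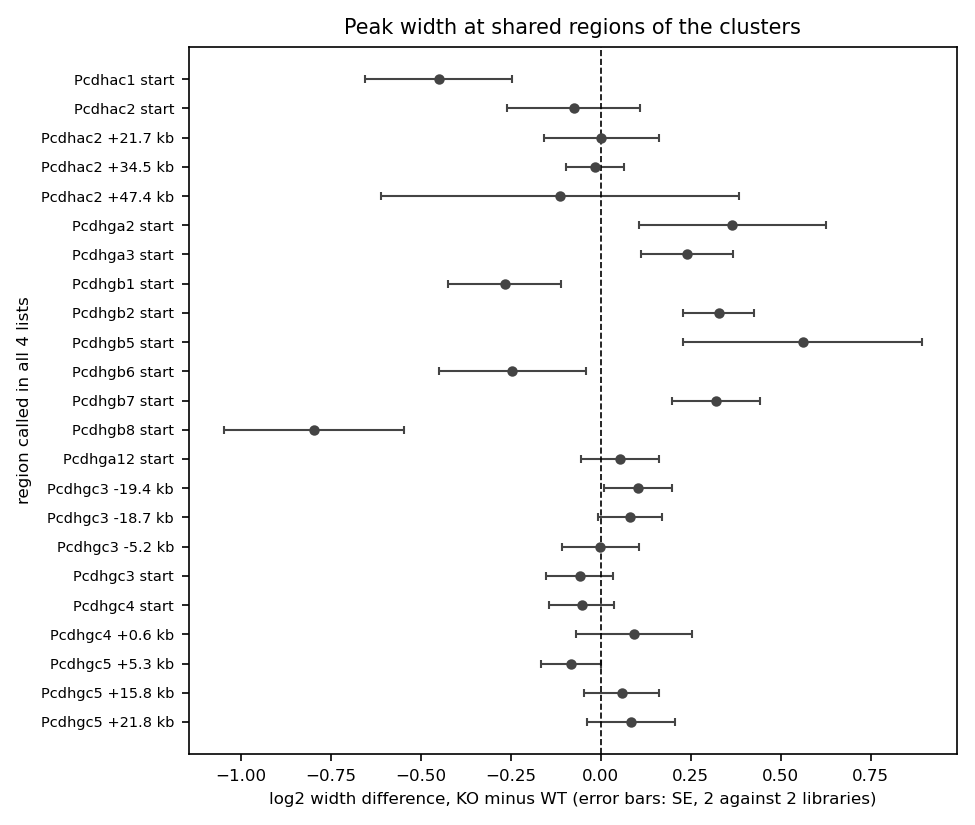
Log2 difference in quantile-normalised peak width, KO minus WT, with its standard error (x axis), at the 23 cluster regions listed in all 4 libraries (rows, named by the nearest member start and the distance from it). Points lie on both sides of 0, from -0.80 at Pcdhgb8 to 0.56 at Pcdhgb5, and those of the C-type starts Pcdhac2, Pcdhgc3 and Pcdhgc4 lie within 0.08 of 0.

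The non-clustered protocadherins are single genes with their own promoters outside the clusters, with Pcdh1 and Pcdh12 on chromosome 18 as well. For 9 of 12, all 4 libraries listed a peak no more than 1000 bp from a gene end, among them Pcdh12, which is known from endothelial junctions, Pcdh1, Pcdh7 and Pcdh17. Pcdh9, Pcdh11x and Pcdh15 had none. Of their 58 regions within 5 kb, 40 were in all lists, 0 had the KO pattern and 2 the WT pattern, at Pcdh1 and Pcdh9. Over all protein-coding genes, 62% had a gene-end peak in every library. The counts at the clustered genes used starts, so the sets are not compared.

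The same count was made for genes of the machinery known to act on the clusters. Of 11 insulator and cohesin genes, 8 had a gene-end peak in every library, among them Ctcf, Smc1a, Smc3 and Wapl. Over all protein-coding genes the share was 62%, which stands beside the methylation and repression count below as well. Both pattern counts in these lists stand beside the 1.12% and 3.04% of all regions given above. The 43 insulator and cohesin regions held 0 of the KO pattern and 0 of the WT pattern. Dnmt3a, the gene knocked out, had no gene-end peak in any library, and the same held for Dnmt1, Rad21, Stag1 and Nipbl. The rule looks only near the 2 ends of a gene's span, so this does not show that their promoters lacked peaks. Within these spans or 5 kb of them, regions in all lists numbered 3 of 4 at Dnmt1, 1 of 1 at Rad21, 5 of 10 at Stag1 and 3 of 4 at Nipbl. Of the 20 Dnmt3a regions, 14 were in all lists and 1 had the KO pattern. Peak lists do not show whether an exon was deleted, so this does not check the genotype labels. Of 8 methylation and repression genes, 6 had such a peak in every library, including Dnmt3b, which encodes the related methyltransferase, and Setdb1, a histone methyltransferase gene. The 57 regions of these genes held 2 of the KO pattern, at Dnmt3a and Wiz, and 1 of the WT pattern, at Smchd1, which encodes a chromatin protein known to repress the clusters.

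Markers were counted by the same gene-end rule, by which 62% of all protein-coding genes had a peak in every library. All 10 endothelial markers, including Pecam1, Cdh5 and Kdr, had a peak in every library and 0 of 5 leukocyte markers had one in any. Epithelial markers numbered 3 and 4 of 5 in KO and 4 and 4 in WT, mesenchymal and mural markers 5 of 5 in every library, and neuronal markers 4 of 5 in every library. An accessible gene end does not show expression, and the part of other cell types in the protocadherin peaks was not tested.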

How the data were processed

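ATAC-seq peak lists of 2 KO and 2 WT libraries were used. Each deposited list gives chromosome, start, end and width for its own library, with width in base pairs per the file headers and no score or read count. Bowtie2, cutadapt and Picard, and the build mm10, are named in the submitters' processing notes. Not given in the sources used here were the peak caller, its threshold, any transposase shift and how reads mapping to several similar exons were treated.

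Peaks outside the autosomes and sex chromosomes were dropped (92 and 134 in KO and 134 and 124 in WT). Peaks overlapping by at least 1 bp were joined, and width at a region is the sum of a library's peaks there. Genes came from RefSeq (GRCm38.p6, the mm10 assembly), which gives spans without strand. The start of an alpha or gamma gene was taken as its low-coordinate end, since their high-coordinate ends are shared, and for beta genes both ends were searched. The genome background used genes whose strand is recorded, and a gene counted when any of its recorded starts had a peak in range. Regions per 100 kb over the genome took each chromosome up to its last peak. No sequence was used here.

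Library values were compared by two-sided exact permutation tests, widths by limma 3.58.1 (R 4.3.3), and the rest with Python 3.11.15. The scripts were tested on simulated data. The width simulation was revised 2 times after its recovery was seen, and all 3 versions are given. Version 1 took each region's noise from its SD over the 4 libraries and planted 100 log2 changes of 1 and 100 of 2 among 75395 regions: 0 and 0 were called. Version 2 drew variances from limma's fitted prior, with the same changes: 0 and 0 were called. Version 3 added 100 changes of 4: 3, 68 and 88 of 100 were called, with 11 false calls. Planting more and larger changes eases the adjusted threshold, so version 3 alone would overstate what the fit can detect. Members and lists were chosen with earlier results of these data known. Named were members with a start peak in at least 1 library, all KO- and WT-pattern regions, the 3 widest shared regions per sub-cluster, and the listed related genes. The shares of all genes with a gene-end peak and of all regions in the leave-out patterns use the same rules as the counts beside them. Alternatives covered the flank, overlap, absence, list length, width, window, block and leaving out each library. Chosen after the data were seen were the gamma value without the region past Pcdhga12, the counts of widths that did not overlap between genotypes, and the stretches without peaks.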

Additional observations from a re-analysis of the deposited data

How the results depend on the processing

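The KO-pattern count (4) was 1 and the WT-pattern count (2) was 0 when peaks narrower than their list's median were dropped. Leaving out each library put the KO-pattern count between 4 and 8 and the WT-pattern count between 3 and 7. The 8 and 7 came without KO replicate 2, where 3.21% and 11.1% of all regions had these patterns by the same, looser rule. Shares of all regions were not computed without a WT library or with the width limit, so those counts cannot be set against the genome. With equal list lengths, where KO replicate 1 was not cut, the difference in members with a start peak turned to 2 more in KO, and that in beta peaks became 0. With a window of 2500 bp around starts the former was 0. Differences in covered base pairs kept their sign without each library, at -704 to -627 bp in alpha, -541 to -296 bp in beta and 1055 to 1374 bp in gamma, while equal list lengths gave -800.5, -193 and 1252.5 bp. With 2 libraries a genotype the replicate block leaves each difference in means as it is by construction. Limma called 0 regions under each alternative, with 4394 at an unadjusted p under 0.05 with the replicate block and 4546 without it. The labels give no shared animal or batch for a replicate number, and the differences between replicates 1 and 2 correlated at -0.045 between genotypes. The width simulation was tried in 3 versions, of which the first and second called 0 of the planted changes, so counts of 0 here are no sign of stability.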
